A study of Mus musculus with 92 samples.

Results

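The comparison concerns quadriceps muscle from mice at the top and bottom of the natural range of Irs1 messenger RNA. Of 92 animals, the 23 with the highest Irs1 value formed the high group and the 23 with the lowest formed the low group, so the members were chosen by their measured Irs1 value. The other 46, called the middle animals, were left out of this contrast. All 92 were DOz mice, outbred animals that differ from one another in the alleles they inherited. Every animal ate chow and was about 18 to 20 weeks old, and no animal was treated. The 2 groups were therefore defined by rank on one transcript, not by a treatment or genotype of the study. Values are the deposited log2 expression values, on a scale close to log2 CPM, the logarithm of a transcript's abundance relative to its library's total.

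Irs1 encodes insulin receptor substrate 1, the docking protein that the activated insulin receptor phosphorylates on tyrosine. Phosphorylated IRS1 recruits phosphoinositide 3-kinase, which through AKT brings the glucose transporter GLUT4 to the surface of the muscle fibre and restrains FoxO transcription factors. Serine phosphorylation by several kinases and ubiquitin-dependent degradation limit IRS1 protein, so its messenger RNA is only one layer of its control.

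The Irs1 gene (ENSMUSG00000055980) lies on the minus strand at chr1:82233101-82291416 of mm10, in GENCODE M21. Its coding transcript spans 9144 bases in 2 exons, of which 3693 are coding. The stretch before its RefSeq start (mm10) is shown because Irs1 defined the groups, and that of Hspa1a because this gene had the largest difference found. Each is 150 bases long, and capitals mark CACGTG, an E-box, in Irs1 and a match to GAANNTTC or TTCNNGAA, the core of a heat shock element, in Hspa1a. For Dnaja1 and Hsph1, 2 more chaperones described below, only the 30 bases around the match are given.
Irs1, chr1:82291440-82291589, minus strand: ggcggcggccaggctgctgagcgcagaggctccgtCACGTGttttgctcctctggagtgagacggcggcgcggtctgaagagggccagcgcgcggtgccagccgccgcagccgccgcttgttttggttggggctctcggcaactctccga
Hspa1a, chr17:34972157-34972306, minus strand: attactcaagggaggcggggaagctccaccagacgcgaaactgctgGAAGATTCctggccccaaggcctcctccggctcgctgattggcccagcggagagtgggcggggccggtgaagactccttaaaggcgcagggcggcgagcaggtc
Dnaja1, chr4:40722333-40722362, plus strand: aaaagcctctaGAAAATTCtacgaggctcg
Hsph1, chr5:149636351-149636380, minus strand: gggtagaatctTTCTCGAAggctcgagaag

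The values that chose the groups are given as a description. Irs1 ran from 4.74 to 7.26 over the 92 animals, with a mean of 5.86 ± 0.55 (SD, n = 92). The high group averaged 6.60 ± 0.38 (SD, n = 23), with its lowest animal at 6.21, its median at 6.50 and its highest at 7.26. The low group averaged 5.20 ± 0.20 (SD, n = 23), running from 4.74 through a median of 5.23 to 5.45. The middle animals averaged 5.81 ± 0.17 (SD, n = 46). The group means were 1.40 apart on the log2 scale, which is 2.63-fold. At the edges the values were continuous: the highest low animal was at 5.45 and the lowest middle animal at 5.48, while the highest middle animal was at 6.18 and the lowest high animal at 6.21. The top of the range was less even, with 6 animals above 6.9. Averaged over all animals, the Irs1 value was higher than that of 85.4% of the measured genes. Whether the values were corrected for transcript length is not given, so this is a rank of values only.

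**Figure D1:**
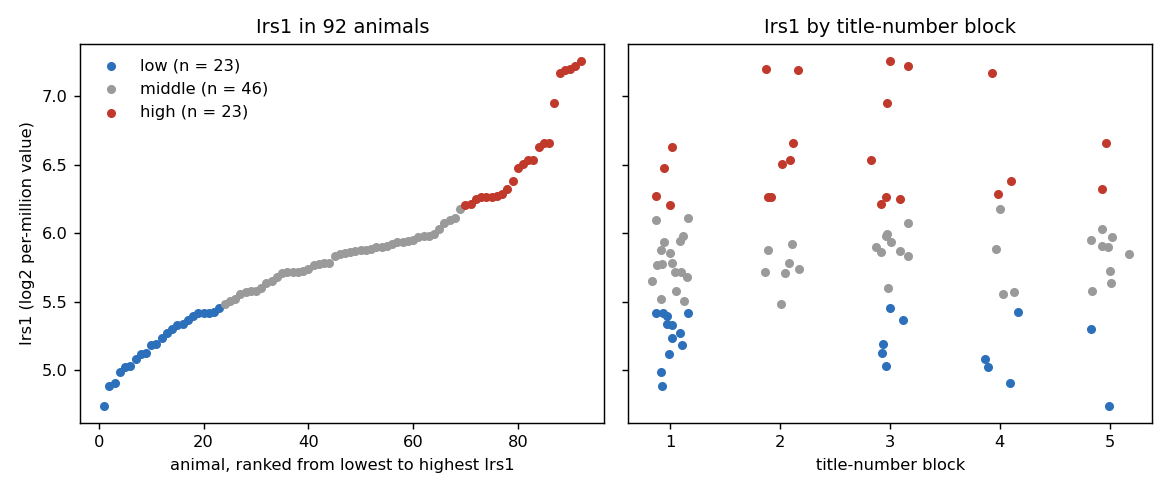
Left, Irs1 (log2 CPM value, vertical axis) in each of the 92 animals against its rank (horizontal axis), with the low group in blue, the middle animals in grey and the high group in red. Right, the same values by block of sample title numbers. The groups meet without a gap at 5.45 and 6.21, and block 2 holds 7 high animals and no low animal.

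The sample titles carry numbers that fall into 5 runs, called blocks here. What a block stands for is not given in the sources used here. The 2 groups were unevenly spread over them. Block 1 held 4 high and 12 low animals of 33, and block 2 held 7 high and no low of 14. Block 3 held 7 high and 5 low of 21, block 4 held 3 and 4 of 11, and block 5 held 2 and 2 of 13. Mean Irs1 was 5.67 in block 1 and 6.20 in block 2. In block 2 alone, block and group cannot be told apart. In the other 4 blocks the groups could be compared within the block. Each animal is a separate mouse. On the first 2 principal components of all genes, the 2 animals farthest from the rest were both in the low group.

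A second gene shares sequence with Irs1. ENSMUSG00000022591 (Gm9747 in GENCODE M21) lies on the plus strand at chr1:82233112-82235933. All 2822 bases of it fall inside the last exon of Irs1, where they make up 30.9% of Irs1's exon bases. Whether counting used the strand is not given in the sources used here, so reads of the pair cannot be told apart. Its values were 4.64, 5.64 and 6.77 (lowest, median, highest) in the high group and 4.09, 5.12 and 5.76 in the low group. The difference of 0.73 ± 0.15 (SE) had an adjusted p of 0.0065 by limma with Benjamini-Hochberg adjustment over all genes tested. This gene is counted below but not read as a separate result. When animals were ranked by the sum of both genes, 20 of the 23 high and 19 of the 23 low animals stayed in their groups.

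Beyond Irs1, 195 of 13440 genes (1.45%) differed between the groups at an adjusted p under 0.05. All adjusted p-values for the contrast come from limma with Benjamini-Hochberg adjustment over these 13440 genes. In the high group 154 genes were higher (1.15% of those tested) and 41 were lower (0.305%). The median difference was 0.33 among the higher genes, which spanned 0.14 to 2.04, and most were smaller than the Irs1 gap of 1.40, though Hspa1a and Hspa1b were larger. Among the lower genes the median was -0.36, with a span from -1.21 to -0.14. No gene separated the groups completely. At an unadjusted p under 0.05 there were 2238 genes (16.7%), of which 1336 were higher (9.94%) and 902 lower (6.71%). Without ENSMUSG00000022591 the calls numbered 194. Adding the block as a covariate left 5 calls (0.0372%), 3 higher, P4ha1 and Rasgrp2 among them, and 2 lower, Igfbp3 and Plekhf1. In that fit all 195 differences kept their sign, 192 had an unadjusted p under 0.05, and the median ratio of the adjusted to the unadjusted difference was 0.862. Of the 195 genes, 163 had the same sign in all 4 blocks that held both groups. The 195 genes were chosen in these same animals, so these counts of kept signs and p-values are largely built in and are a description. Leaving out block 1 gave 20 calls, leaving out block 2 gave 19, and leaving out the 2 animals farthest on the principal components gave 128. A slope on Irs1 over all 92 animals with the block as a covariate called 1.85% of genes.

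**Figure D2:**
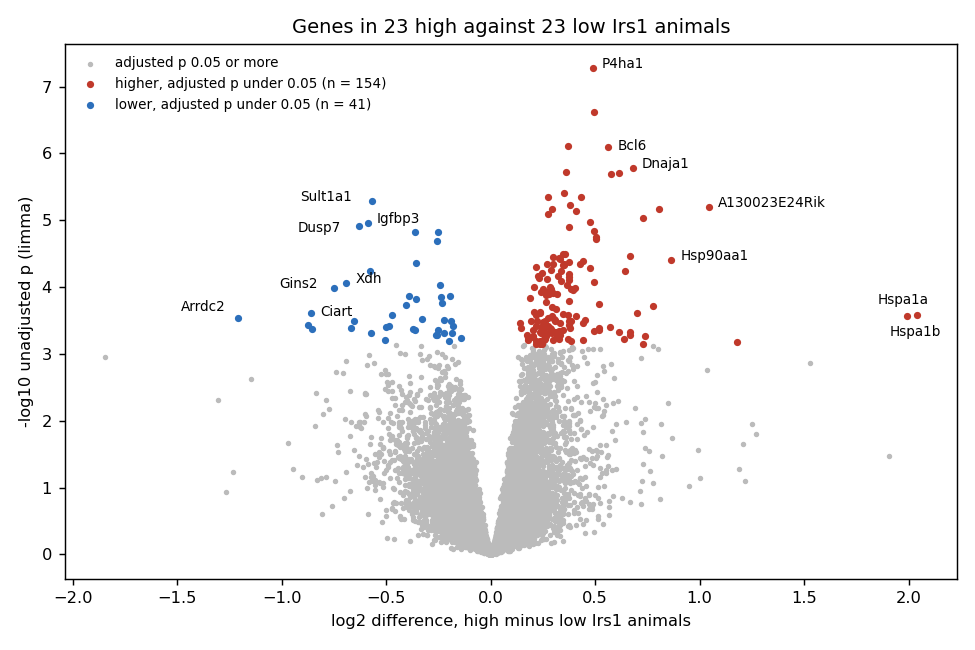
Each point is a gene, with its log2 difference (high minus low, 23 animals a side) on the horizontal axis and -log10 of the unadjusted limma p on the vertical axis. The 154 higher genes are red and the 41 lower genes blue. The calls lean to the right, and Hspa1a and Hspa1b stand at the far right near 2.

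Among the pathway and marker lists, the heat shock chaperones had the most genes called. Chaperones of this kind fold new proteins and refold damaged ones, and heat shock factor 1 raises their transcription under stress. Of 20 measured members, 8 were higher and none was lower, where 1.15% and 0.305% of all genes were. In all, 19 had a positive difference, and the list's median was 0.25, against -0.003 over all genes tested.

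Hspa1a and Hspa1b encode the 2 inducible HSP70 proteins and are near-identical copies. Hspa1a was 1.93, 6.46 and 8.72 (lowest, median, highest) in the high group and 1.02, 3.37 and 7.24 in the low group. The groups overlapped widely, but 20 of 23 high animals lay above the median of the low group. The difference was 2.04 ± 0.52 (SE; adjusted p = 0.035). Hspa1b differed by 1.99 ± 0.51 (SE; adjusted p = 0.0353), and across animals its correlation with Hspa1a was 0.99, so reads split between the copies make their separate values uncertain. Of the 10 animals with the highest Hspa1a, 5 were in the high group, 5 were middle animals and none was in the low group. Within blocks 1, 3, 4 and 5 the Hspa1a difference was 1.91, 2.76, 2.10 and -0.20, the last from 2 animals a side.

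Among HSP90 genes, Hsp90aa1, the inducible cytosolic HSP90, was 5.90, 7.29 and 9.11 in the high group and 5.60, 6.58 and 7.81 in the low group. Its difference was 0.86 ± 0.19 (SE; adjusted p = 0.0139), and 22 of 23 high animals were above the low median. Ahsa1, an activator of the HSP90 ATPase, differed by 0.19 (adjusted p = 0.036). Chordc1, a co-chaperone of HSP90, was 5.53, 6.11 and 6.62 against 5.25, 5.75 and 6.24, a difference of 0.41 ± 0.08 (SE; adjusted p = 0.00582). The constitutive Hsp90ab1 differed by 0.18 and did not pass (adjusted p = 0.061).

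Dnaja1 encodes an HSP40 partner of HSP70 and had the lowest p of the list. It was 5.35, 6.58 and 7.38 in the high group and 5.21, 5.88 and 6.71 in the low group. The difference of 0.68 ± 0.12 (SE; adjusted p = 0.00338) placed 22 of 23 high animals above the low median and was positive in each of the 4 blocks, at 0.46, 0.69, 0.87 and 0.59. Hsph1, the HSP110 exchange factor of HSP70, was 6.71, 7.20 and 7.92 against 6.13, 6.86 and 7.29. It differed by 0.44 ± 0.10 (SE; adjusted p = 0.0139). Hspa8, the constitutive HSC70, differed by 0.32 (adjusted p = 0.022). The 12 members that did not pass included Hspb1 (0.43), Bag3 (0.24), Hspa5 (0.14), Dnajb1 (0.15) and Cryab (0.09), and Hspb7 (-0.20) was the only member with a negative value.

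**Figure D3:**
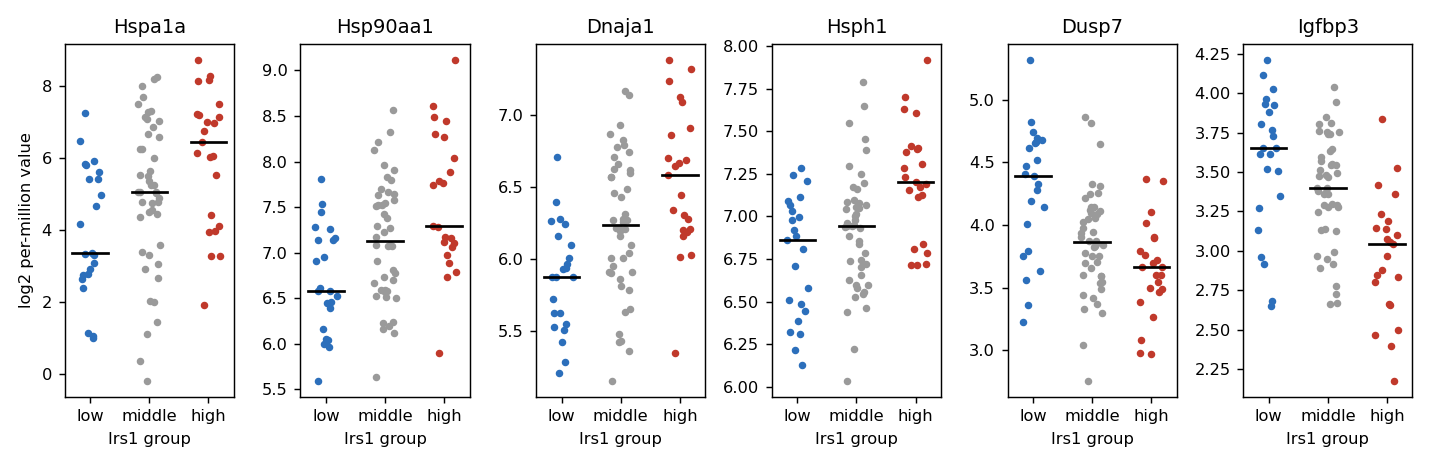
Log2 CPM values (vertical axes, scaled per gene) of 4 higher chaperones and of the lower genes Dusp7 and Igfbp3, by Irs1 group: low (23 animals, blue), middle (46, grey) and high (23, red). Points are animals and bars are medians; the groups overlap in every panel, and the Hspa1a median goes from 3.37 in the low group to 6.46 in the high group.

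In the 46 middle animals, which the contrast did not use, no slope of a chaperone on Irs1 was detected. None of the 20 had an unadjusted p under 0.05 in either direction, where 5.32% of all genes sloped upward and 3.11% downward at that level, and 9 slopes were positive. The slope of Hspa1a was -0.16 ± 0.30 (SE) per SD of Irs1 (unadjusted p = 0.607), and that of Dnaja1 was -0.0038 ± 0.070 (SE; unadjusted p = 0.957). The SD of Irs1 in these animals was only 0.17, a far narrower range than the gap between the groups, and these errors are too wide to tell a slope of the contrast's size from none. Across the 92 animals the 8 higher chaperones went together, with pairwise correlations from 0.41 to 0.99 and a median of 0.69, given as a description. With the block as a covariate the list's median was 0.23, and none of the 8 passed (adjusted p from 0.0629 for Dnaja1 upward; Hspa1a 0.246). A core heat shock match on either strand, in the 250 bases before the start, was present in 8 of 16 chaperones with a promoter sequence, against 12.4% of 10119 tested genes. Of the 6 called chaperones with such a sequence 4 held a match, and Chordc1 and Ahsa1 held none. The motif was chosen after the values were seen, and the match is a description of letters only. Among all higher genes with a promoter sequence it was present in 9.84%.

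The receptor end of the insulin pathway showed no call. Of 25 measured genes of the insulin receptor, its substrates and adaptors, none passed, and 4 were higher and none lower at an unadjusted p under 0.05, where 9.94% and 6.71% of all genes were. Their median difference was 0.07, or -0.03 with the length covariate described below. Irs2, the second main substrate, was 3.84, 5.05 and 6.28 in the high group and 3.67, 4.50 and 6.04 in the low group. The difference of 0.40 ± 0.19 (SE) did not pass (adjusted p = 0.276). The insulin receptor gene Insr differed by 0.18 (adjusted p = 0.153) and the related receptor gene Igf1r by 0.02 (adjusted p = 0.946). Differences of the inhibitory adaptor genes Grb10 and Grb14 were 0.07 and -0.18 (adjusted p = 0.831 and 0.523). The receptor phosphatase gene Ptpn1 was at -0.09 (adjusted p = 0.524). Fbxo40, the muscle ubiquitin ligase subunit that targets IRS1 protein, differed by 0.10 ± 0.06 (SE; adjusted p = 0.394). A p that misses the threshold does not show that levels were alike.

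The kinase relay behind IRS1 gave values nearer the threshold. In the list of phosphoinositide 3-kinase, AKT and lipid phosphatase genes, none of 22 passed, and the median was 0.09, or 0.01 with the length covariate. At an unadjusted p under 0.05, 6 were higher and none lower, where 9.94% and 6.71% of all genes were. Gsk3b, the glycogen synthase kinase that AKT inhibits, was 6.51, 6.72 and 7.13 in the high group and 5.69, 6.47 and 7.11 in the low group. All 23 high animals lay above the low median, yet the difference of 0.26 ± 0.07 (SE) had an adjusted p of 0.0512. In the middle animals Gsk3b sloped upward by 0.13 per SD of Irs1 (unadjusted p = 0.000122), which did not pass after adjustment over all genes (limma adjusted p = 0.267). Differences elsewhere were 0.18 for the kinase gene Pdpk1 (adjusted p = 0.098), 0.22 for Akt2 (0.123), 0.20 for the catalytic subunit gene Pik3ca (0.198), 0.08 for the regulatory subunit gene Pik3r1 (0.789) and -0.03 for Akt1 (0.802). With the length covariate described below, the Gsk3b difference was 0.07.

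Kinases that can phosphorylate IRS1 itself included 2 higher genes of 18 and none lower, where 1.15% and 0.305% of all genes were. The list median was 0.08, or -0.02 with the length covariate described below. Mapk8, the stress kinase JNK1, was 4.87, 5.35 and 5.77 in the high group and 4.19, 5.13 and 5.50 in the low group. The high animals lay above the low median in 20 of 23, and the difference was 0.27 ± 0.07 (SE; adjusted p = 0.0399). It did not pass with the block as a covariate (0.20, adjusted p = 0.367) or with the length covariate (0.14, adjusted p = 0.521). The other higher gene of this list is not reported here, so these 2 fits are given for Mapk8 only.

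Steps farther down gave no call. For GLUT4 traffic and glucose uptake, none of 21 genes passed, and the median was 0.02, turning to -0.01 after quantile normalization. Slc2a4, which encodes GLUT4, was 8.42, 8.70 and 8.94 in the high group and 8.18, 8.65 and 8.92 in the low group. Those ranges nearly coincide, and the difference was 0.02 ± 0.05 (SE; adjusted p = 0.877). The AKT substrates Tbc1d4 and Tbc1d1, which hold GLUT4 vesicles back, were at 0.36 and -0.02 (adjusted p = 0.292 and 0.971). Genes of the mTOR complexes and translation control had no call among 22 (median 0.04). FoxO and muscle atrophy genes had none among 22 (median 0.02, or -0.01 after quantile normalization). Foxo1 was at -0.21 (adjusted p = 0.524) and Foxo3 at -0.04 (0.872). Lipogenic genes had none among 22 (median 0.06), glycolysis and glycogen genes none among 26 (median -0.005), and fatty acid uptake and oxidation genes none among 32 (median -0.02).

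Among 20 growth factor genes, 2 were higher and 1 was lower, against 1.15% and 0.305% of all genes, and the median was -0.05. Igfbp3, an IGF-binding protein (chr11:7206086-7213923), was 2.18, 3.05 and 3.84 in the high group and 2.65, 3.65 and 4.21 in the low group. It was below the low median in 22 of 23 high animals, and the difference was -0.59 ± 0.12 (SE; adjusted p = 0.00704). The sign was negative in each of the 4 blocks, and the call held with the block (adjusted p = 0.0161). In the middle animals its slope was -0.01 (unadjusted p = 0.833). The receptors Acvr2a, which binds activins and myostatin, and Tgfbr1, the type I receptor of TGF-beta, were higher by 0.34 (adjusted p = 0.0184) and 0.24 (adjusted p = 0.0488). With the length covariate neither passed, at 0.26 (adjusted p = 0.247) and 0.09 (adjusted p = 0.633). Mstn, myostatin itself, was at 0.12 (adjusted p = 0.706) and Igf1 at 0.08 (0.846).

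Ceramide metabolism, named in the title of the study for its relation to insulin resistance, gave no call among 39 measured genes, with a median of 0.01. Cers1, the ceramide synthase typical of muscle, was 3.73, 4.11 and 4.77 in the high group and 3.26, 4.14 and 4.81 in the low group, a difference of 0.02 ± 0.10 (SE; adjusted p = 0.941). Of its exon bases, 42.5% are shared with Gdf1, so its reads are uncertain. Cers2, which makes very long-chain ceramides, was 3.94, 4.25 and 4.68 against 4.03, 4.52 and 4.70. The high animals were below the low median in 18 of 23, and the difference of -0.20 ± 0.06 (SE) did not pass (adjusted p = 0.0874).

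Outside the fixed pathways, P4ha1 had the lowest p of all genes. It encodes the catalytic subunit of collagen prolyl 4-hydroxylase (chr10:59323296-59373304). The high group was at 6.02, 6.53 and 7.09 and the low group at 5.44, 6.10 and 6.50, with 14 high animals above every low animal. The difference was 0.49 ± 0.08 (SE; adjusted p = 0.000716), and it was similar in the 4 blocks, at 0.46, 0.39, 0.63 and 0.55. With the block the adjusted p was 0.0134. In the middle animals the slope was 0.05 (unadjusted p = 0.241).

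Bcl6, a transcriptional repressor, was 6.10, 6.94 and 7.69 in the high group and 5.80, 6.39 and 6.85 in the low group. All 23 low animals lay under the high median, and the difference was 0.56 (adjusted p = 0.00265). Bpnt1, a nucleotide and inositol phosphatase, differed by 0.37 (adjusted p = 0.00265). The largest differences among higher genes with a mean of at least 1, after the HSP70 pair, were A130023E24Rik at 1.05, Hsp90aa1, Gm57354 at 0.81, Nle1, a ribosome assembly factor, at 0.78, Fbxo17, an F-box gene, at 0.74, and the zinc-finger genes Zfp973 and Zfp971 at 0.73 and 0.70. With the length covariate A130023E24Rik was at 0.49 (adjusted p = 0.2), Gm57354 at 0.39 (0.205), Fbxo17 at 0.62 (0.319), Zfp973 at 0.31 (0.618) and Zfp971 at 0.23 (0.598), none of which passed. Nle1 passed there, at 1.02 (0.00906). A130023E24Rik and Gm57354 have no entry in GENCODE M21, so no position is given. Genes with a Zfp symbol, a set chosen after the values were seen, had 13 higher and 1 lower of 351, which is 3.70% and 0.285%, against 1.15% and 0.305% of all genes, with a median of 0.06. With the length covariate described below that median was -0.004.

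Among lower genes, the largest difference was in Arrdc2, an arrestin-domain gene that glucocorticoids raise in muscle. It was 1.34, 2.53 and 4.68 in the high group and 2.27, 3.48 and 6.63 in the low group, a difference of -1.21 ± 0.31 (SE; adjusted p = 0.0363). It was the only call among 14 glucocorticoid targets and metallothioneins (median -0.16), where 0.305% of all genes were lower, and that share is also the background for the single calls in the clock and immediate-early lists. Ciart, a repressor of the circadian clock, was 0.86 lower (difference -0.86, adjusted p = 0.0344) and the only call of 20 clock genes, whose median was 0.03, or -0.01 after quantile normalization. At an unadjusted p under 0.05, 5 of the 20 were higher and 5 lower, against 9.94% and 6.71% of all genes, with Clock at 0.26 (adjusted p = 0.0546) and Bmal1 at 0.31 (0.104) against Per1 at -0.79 (0.110) and Dbp at -0.70 (0.147). Zfp36, whose product promotes decay of inflammatory messenger RNAs, was at -0.48 (adjusted p = 0.0399), the only call of 20 immediate-early genes (median -0.11).

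Dusp7, a phosphatase of ERK kinases (chr9:106368632-106375724), was 2.97, 3.66 and 4.37 in the high group and 3.23, 4.39 and 5.32 in the low group. All 23 high animals lay below the low median, and the difference was -0.63 ± 0.13 (SE; adjusted p = 0.00749). It did not pass with the length covariate (adjusted p = 0.0595) or with the block (0.16). In the middle animals Dusp7 sloped downward by 0.18 per SD of Irs1 (slope -0.18, unadjusted p = 0.00194), which did not pass after adjustment over all genes (limma adjusted p = 0.345). Sult1a1, a phenol sulfotransferase, and Xdh, xanthine dehydrogenase, were likewise below the low median in 23 of 23, at -0.57 (adjusted p = 0.00572) and -0.69 (adjusted p = 0.0187). Plekhf1, an endosomal protein, was at -0.36 (adjusted p = 0.00769) and Pnrc2, a factor in messenger RNA decapping, at -0.25 (adjusted p = 0.00769). The other lower genes named by size were Lilrb4a (-0.88), an inhibitory receptor of myeloid cells, Gins2 (-0.75), Trp53i11 (-0.66) and Adh1 (-0.58). Gins2 shares 67.3% of its exon bases with Gse1 on the other strand, and Lilrb4a 35.3% with Gm49339, so both are uncertain. With the length covariate Gins2 was at -0.34 (adjusted p = 0.467), Lilrb4a at -0.87 (0.183), Trp53i11 at -0.72 (0.101) and Adh1 at -0.46 (0.201), none of which passed. Sult1a1, Xdh, Plekhf1 and Pnrc2 passed in that fit. Without the 2 farthest animals Arrdc2 (-1.06, adjusted p = 0.071), Lilrb4a (-0.66, 0.0603) and Zfp36 (-0.41, 0.0731) did not pass, nor did the higher genes Fbxo17, Zfp973, Stk38l and Tgfbr1.

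Across all 92 animals, and as a description that overlaps the contrast, the genes most correlated with Irs1 were Mrtfb (Pearson 0.61), a coactivator of serum response factor, Stk38l (0.56), Trib2 (0.54), P4ha1 (0.54) and Jak1 (0.54), the cytokine receptor kinase. The most negative were Dusp7 (-0.54), Nctc1 (-0.52), a muscle noncoding RNA, Sult1a1 (-0.51), Igfbp3 (-0.47) and Plekhf1 (-0.47). ENSMUSG00000022591 had 0.60. In the contrast Mrtfb differed by 0.37 (adjusted p = 0.0171), or 0.24 (adjusted p = 0.319) with the length covariate described below. These 92 libraries share the blocks described above.

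The middle animals gave directions in animals that the contrast did not use. A slope on Irs1 over these 46 called 2 genes (0.0149%), Arih1 and Ddx6, each at an adjusted p of 0.00686 by limma with Benjamini-Hochberg adjustment. Arih1, a ubiquitin ligase, sloped upward by 0.13 per SD of Irs1, and Ddx6, an RNA helicase of processing bodies, by 0.14. Neither passed in the contrast (adjusted p = 0.102 and 0.0589). With the length covariate described below, their contrast differences were 0.04 (adjusted p = 0.868) and 0.09 (0.664). The slope in the middle animals was not fitted with that covariate. At an unadjusted p under 0.05, 715 genes sloped upward (5.32%) and 418 downward (3.11%). Of the 195 genes called in the contrast, 165 had the same sign in the middle animals, against 62.4% of all genes. The 165 were 132 of the 154 higher and 33 of the 41 lower genes. Of them 68 had an unadjusted p under 0.05, and no called gene had such a p with the opposite sign.

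Genes near Irs1 on chromosome 1 were examined because haplotypes differ between DOz animals. Within 5 Mb on either side, 42 genes were measured, and the overlapping ENSMUSG00000022591 was the only call. The other 41 had a median difference of 0.01, ran from -0.26 to 0.36, and had a lowest adjusted p of 0.0836.

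Groups of housekeeping genes had mostly small negative values and few calls. Of 84 cytosolic ribosomal protein genes, 1 was lower, Rpl13a at -0.18 (adjusted p = 0.0399), which shares 29.4% of its exon bases with Gm45713 and is uncertain. With the length covariate Rpl13a was at -0.07 (adjusted p = 0.61). Over all genes 0.305% were lower. Of the 84 values 83 were negative, where 49.1% of all genes were positive, and 54 were lower at an unadjusted p under 0.05, against 6.71% of all genes. The median was -0.13. Nuclear-encoded oxidative phosphorylation genes had no call among 28 (26 negative, median -0.10), mitochondrial ribosomal proteins none among 78 (70 negative, median -0.06), proteasome subunits none among 38 (30 negative, median -0.06) and mitochondrially encoded messenger RNAs none among 13 (12 negative, median -0.09). In the middle animals 44 of the 84 ribosomal protein slopes were positive.

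**Figure D4:**
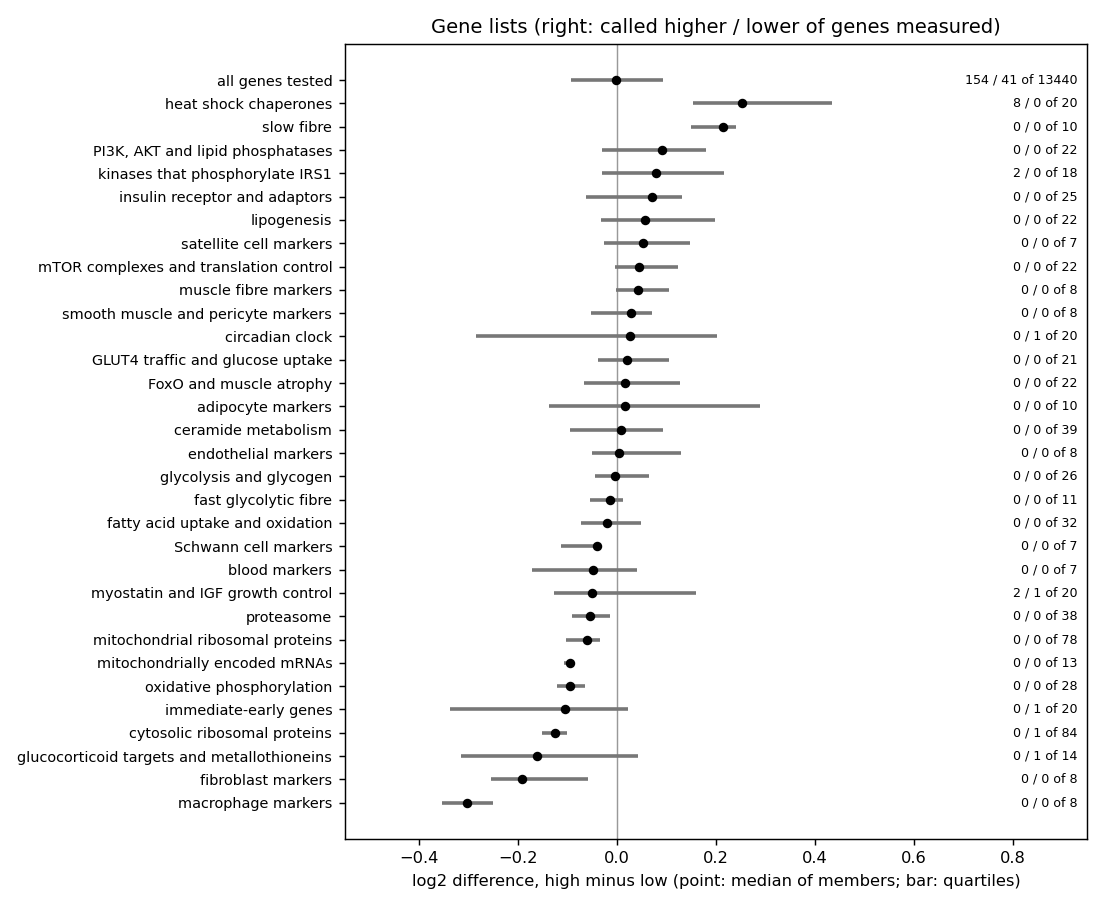
Log2 difference (high minus low, horizontal axis) for each gene list (vertical axis): the point is the median of the measured members and the bar spans their quartiles, with calls higher and lower of members measured at the right. The heat shock chaperones lie farthest right at 0.25 with 8 calls, the macrophage markers farthest left at -0.30 with none, and all genes tested are at -0.003.

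The differences varied with transcript length. The median annotated length was 5208 bases for 151 higher genes with a length, 2135 for 41 lower genes and 2979 for all 13253. Genes were put into 10 bins by length. From the shortest bin (204 to 1178 bases) to the longest (6455 bases and over), the median difference went from -0.08 to 0.08. The shortest bin held none of the higher genes and the longest held 49, and the rank correlation of length with the difference across genes was 0.33. Genes are not independent replicates, so this is a description.

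The same was measured in each library as its length slope, the change in a gene-centred log2 value per doubling of transcript length. It averaged 0.026 ± 0.034 (SD, n = 23) in the high group and -0.024 ± 0.062 (SD, n = 23) in the low group. The difference of 0.0496 had a two-sided permutation p of 0.00062 (100000 resamples) and was positive in blocks 1, 3, 4 and 5, at 0.0253, 0.0317, 0.0254 and 0.146. That p is for the pooled difference, which includes the 7 high animals of block 2, where there was no low animal. No p within blocks is given. The block 5 value came from 2 animals a side, and 1 low library there had the lowest slope of all, -0.211. Without it the block 5 difference was 0.0635 and the overall difference 0.0411 (two-sided permutation p = 0.00178), and 94 higher and 27 lower genes were called in the contrast, 120 of them among the 195. Irs1 itself, at 9144 bases, lies in the longest bin, and its correlation with the slope over 92 animals was 0.37. With the slope as a covariate, 29 genes were called, 25 of them among the 195. All 195 kept their sign, 164 had an unadjusted p under 0.05, and the median ratio of differences was 0.72. These genes were chosen in the same animals, so the counts are a description. The slope was computed from these same genes and their lengths, so medians of lists of short genes move toward those of other genes by construction. The median of the shortest bin became 0.015, the ribosomal protein median 0.01 and the oxidative phosphorylation median 0.02. The heat shock median became 0.34. Dnaja1 (0.75, adjusted p = 0.0044), Hsp90aa1 (1.01, 0.0132) and Hsph1 (0.53, 0.0111) kept their calls, as did Hspa8 and Ahsa1. Hspa1a (2.27, adjusted p = 0.0892), Hspa1b (2.27, 0.0725) and Chordc1 (0.37, 0.0725) did not pass in that fit. The medians of the FoxO (-0.01), clock (-0.04), ceramide (-0.02), fatty acid (0.02), glycolysis (0.06), fast fibre (0.10), mitochondrial ribosomal protein (0.04) and proteasome (0.03) lists also took the opposite sign there.

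**Figure D5:**
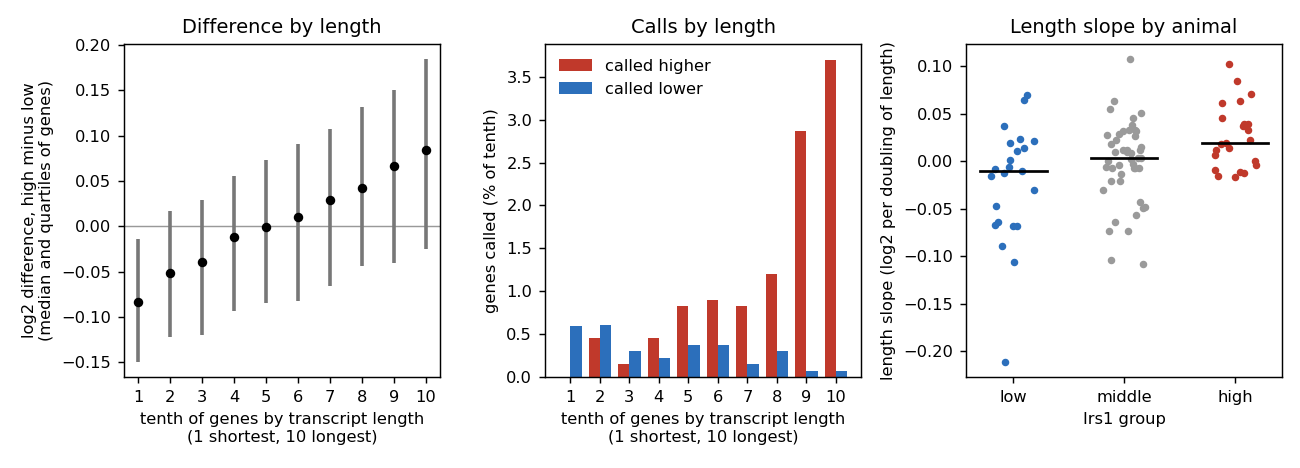
Left, median and quartiles of the log2 difference (high minus low) in 10 bins of genes by transcript length. Centre, the percentage of each bin called higher (red) or lower (blue). Right, the length slope of each library (log2 per doubling of length) by Irs1 group, with bars at the medians. The median difference climbs from -0.08 in the shortest bin to 0.08 in the longest.

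Markers of the tissue and its cells were compared because bulk RNA cannot tell fewer cells of a type from less RNA per cell. Muscle fibre markers, including Ckm, Acta1 and Ttn, were abundant in every library: their summed level ran from 101878 to 156452 CPM in the high group and from 87399.6 to 151778 in the low group, and none of 8 was called. Macrophage markers had no call, but all 8 were negative (median -0.30), and their summed level was 59.4 to 170 CPM (median 99.1) in the high group and 60.03 to 587 (median 108) in the low group. Fibroblast markers had no call, 7 of 8 were negative (median -0.19), and the sums were 609 to 1292 against 594 to 2350. With 7 marker scores as covariates, 163 genes were called, 110 of them among the 195. In that fit Dnaja1, Chordc1, Hsp90aa1 and Hsph1 kept their calls, while Hspa1a (adjusted p = 0.0658), Hspa1b (0.0597), Hspa8 (0.0686) and Ahsa1 (0.108) did not.

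Slow fibre genes had no call among 10, and their median of 0.21 became -0.17 with the block, so no direction is given. Adipocyte markers had none among 10, with a median of 0.02, or 0.29 with the block. The remaining lists had no call either: fast glycolytic fibre (median -0.01 of 11), endothelial (0.003 of 8), Schwann cell (-0.04 of 7, or 0.07 with the block), blood (-0.05 of 7), satellite cell (0.05 of 7), and smooth muscle and pericyte (0.03 of 8).

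The motifs fixed for promoters separated the called genes little. CACGTG was present in the 250 bases before the start of 18 higher genes (14.8% of those with a promoter), 4 of 29 lower genes (13.8%) and 9.92% of all 10119. GTAAACA, a FoxO site searched on both strands, was present in 2.46% of higher genes, none of 29 lower genes and 2.69% of all. TTATGTAA, the D-box, was in 1.64% of higher genes, none of the 29 and 0.544% of all, and the full palindrome of the glucocorticoid response element in neither set and in 1 of all promoters.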

How the data were processed

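Polyadenylated RNA from quadriceps of 92 DOz mice was sequenced, 1 library per animal. The authors deposited 1 table of log2 values, and the submitters' processing notes name kallisto 0.50.1 and mm10; scaling and filtering are not given in the sources used here. Raised to the power of 2, each library's deposited log2 values sum to between 898071 and 1140761, so they were read as log2 CPM. The sums do not show whether the values were corrected for transcript length. Depth is unknown, and precision comes from the spread between animals. Of 13456 table lines, 15 repeated an Ensembl ID with the same values and were dropped, leaving 13441 genes, 13440 without Irs1.

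Animals were ranked by log2 Irs1, and the 23 highest were compared with the 23 lowest by limma 3.58.1 (R 4.3.3, eBayes with trend, no covariate), with Benjamini-Hochberg adjustment and a threshold of 0.05. A separate limma slope on standardised Irs1 used the 46 middle animals. Lengths and positions are from GENCODE M21 (mm10), matched by ID for all but 186 genes, and promoters from RefSeq (mm10). Scripts were tested on simulated data with 200 changed genes.

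Genes named are the 10 largest differences each way among called genes whose mean reached 1, the 5 lowest p-values each way, a fixed set of insulin pathway, growth and ceramide genes, up to 4 called members per list, and the 5 most correlated with Irs1 each way; a few genes that this rule names are not reported here. The groups, lists and rules were chosen with earlier results of these data known, so no pattern here is independent evidence. Title-number blocks are runs of sample numbers separated by gaps over 30. The alternatives were 12 planned and 7 added after seeing the data.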

Additional observations from a re-analysis of the deposited data

How the results depend on the processing

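Depth is unknown, so no limit from read counts can be set, and the ranking selects animals on one noisy transcript. The number of calls, 195 (154 higher, 41 lower), depended on the setting. All differences of the 39 named called genes kept their sign in all planned and added alternatives. These genes were chosen by passing in the main fit, and most alternatives reuse the same animals. A change of sign was therefore unlikely, and the kept signs are a description. No paired analysis was possible because the groups share no replicate numbers. Calls fell to 5 (3 higher, 2 lower) with the block as covariate, 30 (20, 10) with 3 principal components, 23 (17, 6) with 15 animals a side, and 128 (100, 28) without the 2 animals farthest on components 1 and 2, both in the low group. Quantile normalization gave 102 higher and 44 lower, so 69.9% of calls were higher against 78.97%. Calls rose to 737 (579, 158) with 30 animals a side and 672 (543, 129) for a slope over 92 animals. Alternatives added after seeing the data gave 43 (30, 13) when ranking by Irs1 plus the overlapping gene, 29 (20, 9) with the length slope, 27 (19, 8) when ranking within blocks, 20 (15, 5) without block 1, 19 (16, 3) without block 2, 94 higher and 27 lower without the low animal with the lowest length slope, and 197 higher and 52 lower for the slope over 92 animals with block. Where animals were left out the fit had fewer samples; otherwise the cause was not tested. The middle slope called 2 genes, or 3 with block.

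Sign changes occurred only among fixed genes that were not called. With block as covariate Grb10 was at -0.12, Slc2a4 at -0.0053 and Igf1r at -0.021. With 7 marker scores Mstn was at -0.0099, Slc2a4 at -0.0094 and Akt1 at 0.019. With 3 principal components Mstn was at -0.11, Fbxo40 at -0.014, Pik3r1 at -0.031, Slc2a4 at -0.034 and Igf1r at -0.023. Ranking by Irs1 plus the overlapping gene put Pik3r1 at -0.012, Grb10 at -0.021 and Igf1r at -0.091. The length slope put Pik3r1 at -0.067, Grb10 at -0.11 and Igf1r at -0.14. Ranking within blocks put Igf1 at -0.056, Cers1 at -0.015, Slc2a4 at -0.023 and Igf1r at -0.0048. The slope over 92 animals put Cers1 at -0.0085, and with block Igf1 at -0.037, Grb10 at -0.037 and Cers1 at -0.0034. Without the 2 farthest animals Cers1 was at -0.027 and Slc2a4 at -0.0014, and after quantile normalization Slc2a4 was at -0.011. Without block 1 Grb10 was at -0.0079, and without block 2 Grb10 was at -0.074 and Igf1r at -0.0080. Without the animal with the lowest length slope Igf1r was at -0.023. For each of these the cause was not tested.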
